A study of Ginkgo biloba with 16 samples.

Results

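The 66 genes described here had a higher transcript level in every old *G. biloba* tree than in any young tree. *G. biloba* (ginkgo) is a long-lived gymnosperm, and RNA-seq was performed on its vascular cambium, with 1 library from each of 9 healthy trees. The groups were VC20 (trees of 15, 20 and 22 y), VC200 (193, 211 and 236 y) and VC600 (538, 553 and 667 y), with 3 trees each, and the 6 trees of VC200 and VC600 are called old trees. The trees grew under natural conditions without treatment, and RNA came from thin tangential sections cut through the cambial zone of the trunk. The labels name 2 sites and late May of 2 years, whereas the methods of the study take the sequenced cambium from only 1 of these sites. No label gives the year of a tree, so that age and year cannot be told apart. Ages of trees too thick for a full core were estimated from trunk diameter and ring width. Levels are FPKM (fragments per kilobase of gene per 1000000 fragments), which allows levels of different genes to be compared.

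The members were selected on measured values. The rule took the 41,840 gene models with Gb_ names, out of 43,911 gene entries. The lowest FPKM of the 6 old trees had to exceed 1.33 times the highest FPKM of the 3 VC20 trees, and the mean of the old trees had to be at least 3 FPKM. Of the 16,108 Gb_ genes with such a mean, 69 (0.428%) passed. Of these, 1 gene was left out because the main text of the study names it, and 2 because their lowest VC200 level exceeded 1.5 times their highest VC600 level. The direction of every member relative to VC20 is therefore set by the selection, and the levels and ratios given for old trees and VC20 trees are descriptions without a test. The same margin in the opposite direction was met by 107 genes, with a VC20 mean of at least 3 FPKM.

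The vascular cambium is the sheet of dividing cells between wood and bark. Its daughters become xylem cells, which build thick walls of cellulose and lignin, and phloem cells, which carry sugars. Cambial cells also carry the general machinery of stress response, such as chaperones that refold proteins, receptor kinases that sense the cell surface, and RNA-dependent RNA polymerases that take part in RNA silencing. Here, all 7 genes of a cambium list (*WOX4* and HD-ZIP III genes) reached 1 FPKM, as did 7 of 7 genes of dividing cells (cyclins, *CDKB1* and histone H3), 12 of 15 xylem wall genes and 2 of 4 green tissue genes. The summed level of the dividing-cell genes was 137 to 166 FPKM in VC20, 20.0 to 49.3 FPKM in VC200 and 45.5 to 92.6 FPKM in VC600. That of the xylem wall genes was 253 to 510 FPKM in VC20, 87.1 to 274 FPKM in VC200 and 300 to 408 FPKM in VC600. In every tree most of this sum was *Gb_21756*, which matched an isoflavone reductase-like protein, and the 14 other xylem wall genes summed to 72.8 to 182 FPKM in VC20, 14.2 to 36.4 FPKM in VC200 and 53.3 to 111 FPKM in VC600. The cambium list summed to 113 to 220 FPKM in VC20, 27.6 to 161 FPKM in VC200 and 97.2 to 200 FPKM in VC600. The 4 green tissue genes summed to 23.0 to 31.8 FPKM in VC20, 38.9 to 48.3 FPKM in VC200 and 32.2 to 58.5 FPKM in VC600. The only gene of the phloem list, *Gb_22029*, matched callose synthase 10 and had 14.6 to 28.8 FPKM over all trees. Whether this gene marks phloem was not tested, so no phloem content is read from it. The summed level of the dividing-cell genes was thus lower in every old tree than in any VC20 tree. The study names these 7 genes as lower in old trees on the same samples, so this order was partly set by the choice of the list. By gene, all old trees were below all VC20 trees in 3 of these 7. The green tissue sum was higher in every old tree, but barely, with 31.8 FPKM in VC20A and 32.2 FPKM in VC600B. Of its 4 genes, only *Gb_10163* had all old trees above all VC20 trees. The share of all genes that separate in this way was not computed. The sums of the other lists overlapped between VC600 and VC20. The cambium list also holds genes that the study reports as lower in old trees. The xylem wall and green tissue lists came from names in sheets that include genes the study chose on these samples. The part of all these lists in the levels of the members was not tested. In bulk tissue, more cells of a type and more RNA per cell cannot be told apart, nor can fewer cells and less RNA.

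Depth was similar between libraries, with 15,732,412 to 18,811,771 fragments implied by the FPKM values. Library VC200C stood apart. Over all genes above 0 in any library, its highest Spearman correlation with another library was 0.908, against 0.962 to 0.980 for the others. It bears on the members, because it was the highest of the 6 old libraries in 35 of 66 members (53.0%) and in 15.9% of the 16,108 expressed genes. It was the lowest of them in 5 members and in 6,891 expressed genes. The rule asks every old library to be above VC20, which genes low in VC200C may fail. These differences can therefore be partly built in, and nothing is read from them. VC200C is left out beside the results that rest on it.

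The old mean of the members ranged from 3.01 to 1439 FPKM, with a median of 19.1 FPKM. The ratio of the old mean to the VC20 mean had a median of 4.22 over the 65 members with any fragment in VC20, and ranged from 1.57 to 403. Without VC200C the median was 3.10 and the highest ratio 76.9. The ratio was under 2 in 7 members, from 2 to under 5 in 29, from 5 to under 10 in 11, and 10 or more in 18. Without VC200C these counts were 10, 39, 6 and 10. Ratios from 2 to under 5 were thus the most common, and fewer members had a ratio of 10 or more once VC200C was left out. That every old tree was above VC20 is set by the rule. Relative to each other, the old trees were tight or wide. In 17 members the highest old tree was less than 2 times the lowest old tree, while in 18 members it was more than 10 times the lowest. The median of this spread among old trees was 3.996 in the members and 1.92 in the expressed genes.

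**Figure D1:**
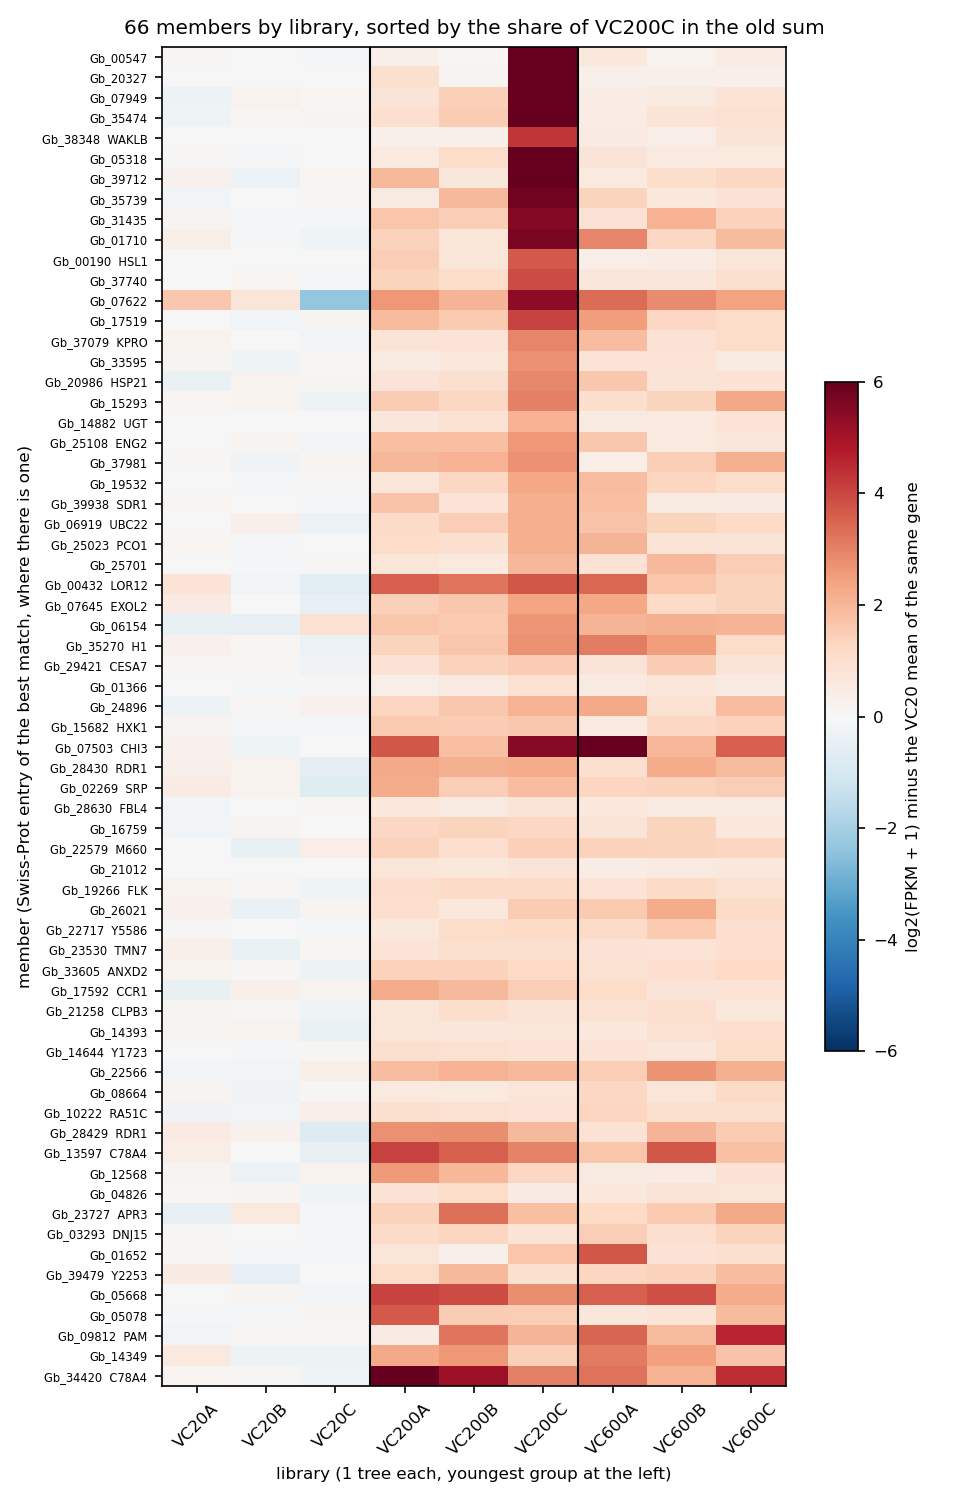
Each row is a member and each column a library, in order of age group. Color shows log2(FPKM + 1) minus the VC20 mean of the same gene, and rows run from the largest share of VC200C in the old sum at the top to the smallest at the bottom. In the rows at the top VC200C is dark and the other old trees are paler.

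Names came from Swiss-Prot matches in the supplementary sheets of the study, which cover 48 members. A name was found for 34 members, and 18 of the 32 unnamed members are on no sheet. Because the sheets hold genes that the study chose on these samples, the share of named members says nothing about function. By words in the names, 5 members fell among kinases and receptors, 6 among oxidation and secondary metabolism, 4 among chromatin and RNA, 3 among heat shock and chaperones, 2 among cell wall, 2 among protein turnover and 1 in defence. Another 11 had other matches. No member was named as a transcription factor, a transporter or a gene of abscisic acid and water stress. Of the 2598 genes named in the sheets, 131, 98 and 25 fell in these groups. *Gb_19071*, matched to an enzyme of abscisic acid synthesis, and *Gb_27520*, matched to a transporter, passed the margin but were left out by the other clauses. The absence of these groups is therefore not read as a trait of the members.

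Kinases and receptors included 4 receptor-like kinases, a class of membrane proteins that bind a signal outside the cell and phosphorylate proteins inside. The most even of them was *Gb_14644* (scaffold22759:81891-82256), matched to an LRR receptor-like kinase of *Arabidopsis thaliana*. It had 4.01, 3.60 and 4.21 FPKM in VC20, 8.57, 8.35 and 7.58 FPKM in VC200, and 7.77, 6.95 and 9.61 FPKM in VC600. The highest old tree was 1.38 times the lowest, and the old mean was 8.14 ± 0.923 FPKM (SD, n = 6) against 3.94 ± 0.314 FPKM in VC20 (SD, n = 3), a ratio of 2.07. The other 3 were low outside VC200C. *Gb_00190*, matched to HSL1, a relative of the abscission receptor HAESA, had 0.232, 0.274 and 0.262 FPKM in VC20, 2.52, 1.11 and 15.1 FPKM in VC200, and 0.665, 0.710 and 1.05 FPKM in VC600. *Gb_37079*, matched to the maize receptor kinase ZmPK1, had 0.293 to 0.646 FPKM in VC20, 1.52, 1.58 and 9.91 FPKM in VC200, and 1.66 to 4.14 FPKM in VC600. *Gb_38348*, matched to wall-associated receptor kinase-like 2, had 0 to 0.0262 FPKM in VC20, 0.249, 0.260 and 18.7 FPKM in VC200, and 0.436, 0.325 and 0.761 FPKM in VC600. In these 3 genes VC200C was the highest tree, and their ratios of the old mean to VC20 were 13.7, 7.75 and 205 with it and 4.72, 4.89 and 24.1 without it. *Gb_38348* had only 2 fragments in the 3 VC20 libraries together. The ratio of its pooled fragments per depth, old trees over VC20, was 201 (95% interval from 55.4 to 1660, exact, counting error only) and 24.6 (6.59 to 206) without VC200C.

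The fifth kinase was *Gb_15682*, matched to hexokinase-1, which phosphorylates glucose at the entry to glycolysis. It had 13.8, 11.7 and 11.2 FPKM in VC20, 38.3, 37.0 and 39.0 FPKM in VC200, and 19.0, 30.04 and 33.7 FPKM in VC600. The VC200 trees were nearly equal and VC600A was the lowest old tree.

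Among oxidation and secondary metabolism, 2 genes matched the cytochrome P450 CYP78A4 of *Pinus radiata*. Enzymes of this family are mono-oxygenases, and in *A. thaliana* members of the CYP78A subfamily promote organ growth. *Gb_34420* (scaffold681:1160178-1162538) had 1.02, 0.938 and 0.599 FPKM in VC20, 151, 62.9 and 13.8 FPKM in VC200, and 16.5, 6.72 and 38.3 FPKM in VC600, so that the old trees differed among themselves by up to 22.5 times. *Gb_13597* (scaffold2126:1419545-1421304) had a higher level in VC20, 22.3, 16.7 and 11.9 FPKM, with 290, 207 and 139 FPKM in VC200 and 54.1, 233 and 58.3 FPKM in VC600. The ratios of the old mean to VC20 were 56.5 and 9.64. In both genes VC200A was the highest tree, but the lowest old tree was VC600B in *Gb_34420* and VC600A in *Gb_13597*. As both match the same protein, whether reads were shared between them was not tested.

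The other enzymes of this group differed less. *Gb_23727*, matched to adenylylsulfate reductase 3 of sulfate assimilation, had 1.38, 4.04 and 2.13 FPKM in VC20, 7.85, 32.1 and 10.6 FPKM in VC200, and 6.66, 9.09 and 15.2 FPKM in VC600. *Gb_17592*, matched to cinnamoyl-CoA reductase 1, which commits phenylpropanoids to lignin, had 16.0, 27.9 and 25.02 FPKM in VC20, 107, 88.5 and 63.2 FPKM in VC200, and 49.2, 39.2 and 40.7 FPKM in VC600. Every VC200 tree was above every VC600 tree in this gene. *Gb_25023*, matched to plant cysteine oxidase 1, an oxygen sensor that marks proteins for breakdown, had 38.4 to 46.7 FPKM in VC20, 82.9 to 189 FPKM in VC200 and 72.1 to 180 FPKM in VC600. *Gb_39938*, a short-chain dehydrogenase/reductase, is described with the genes near the margin.

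Chromatin and RNA genes included a pair of neighbors. *Gb_28429* (scaffold5029:1475899-1477632) and *Gb_28430* (scaffold5029:1490122-1490898) lie on the same strand with 12,489 bases and no other gene model between them, and were the only members that share a scaffold. Both matched RNA-dependent RNA polymerase 1, which copies RNA into double strands and acts in antiviral silencing in *A. thaliana*. *Gb_28429* had 2.67, 2.11 and 0.533 FPKM in VC20, 16.6, 17.0 and 8.96 FPKM in VC200, and 3.67, 9.71 and 6.46 FPKM in VC600. *Gb_28430* had 7.98, 7.22 and 3.97 FPKM in VC20, 33.9, 30.6 and 32.5 FPKM in VC200, and 12.96, 32.5 and 25.6 FPKM in VC600. In both, VC20C was the lowest of all trees and VC600A the lowest old tree. Another model with the same match on this scaffold, *Gb_28432* (1624611-1625186), is no member. It had 9.64, 17.1 and 3.32 FPKM in VC20, 26.5, 39.4 and 21.0 FPKM in VC200, and 15.1, 28.8 and 10.8 FPKM in VC600, so that VC600A and VC600C were below VC20B. The 3 models may be parts of the same gene or share reads, which was not tested. Of the neighboring models, *Gb_28431* had 0 FPKM in all trees and *Gb_28428* had 27.5 to 60.8 FPKM in VC20 and 28.4 to 94.4 FPKM in the old trees.

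Of the other genes of this group, *Gb_35270* matched histone H1, the linker histone that binds between nucleosomes. It had 132, 120 and 88.5 FPKM in VC20, 288, 353 and 752 FPKM in VC200, and 943, 636 and 245 FPKM in VC600. It was thus high in all old trees, with the lowest and the highest both in VC600. The histone H3 genes of the dividing-cell list were not members. *Gb_10222*, matched to RAD51C of DNA repair by recombination, was more even, with 3.56, 3.79 and 5.92 FPKM in VC20, 9.45, 8.96 and 8.29 FPKM in VC200, and 11.9, 9.53 and 9.45 FPKM in VC600.

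Heat shock and chaperone members came from different classes. *Gb_20986*, a small heat shock protein of class II that keeps unfolded proteins soluble, had 42.4, 64.7 and 61.8 FPKM in VC20, 95.9, 110 and 413 FPKM in VC200, and 174, 96.8 and 103 FPKM in VC600. Its old trees were between 95.9 and 174 FPKM apart from VC200C. *Gb_03293*, matched to the DnaJ co-chaperone dnaJ 15, had 5.17, 4.78 and 4.65 FPKM in VC20, 11.9, 13.2 and 9.34 FPKM in VC200, and 15.2, 10.7 and 13.6 FPKM in VC600. *Gb_21258*, matched to ClpB3, which pulls apart protein aggregates in plastids, had 24.5, 22.8 and 18.2 FPKM in VC20, 36.7, 45.4 and 38.9 FPKM in VC200, and 41.0, 44.2 and 34.0 FPKM in VC600. In these last 2 genes the old trees lay within 1.62 and 1.34 times of each other.

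Cell wall members were *Gb_29421*, matched to the cellulose synthase subunit CESA7 that builds secondary walls in *A. thaliana*, and *Gb_25108*, matched to a beta-glucanase of fission yeast. *Gb_29421* had 2.05, 1.90 and 1.43 FPKM in VC20, 4.10, 6.18 and 6.92 FPKM in VC200, and 3.69, 6.96 and 3.73 FPKM in VC600. It was the only one of the 15 xylem wall genes whose old trees all exceeded all VC20 trees. A second gene with the same match, *Gb_31675*, was near 0, with at most 0.683 FPKM in VC20, 0.0995 FPKM in VC200 and 1.04 FPKM in VC600. *Gb_25108* had 14.2, 16.1 and 12.6 FPKM in VC20, 52.03, 52.3 and 91.3 FPKM in VC200, and 45.3, 21.8 and 23.6 FPKM in VC600.

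The defence member, *Gb_07503* (scaffold1478:877840-1145166), matched an endochitinase of potato. Chitinases cut chitin, a component of fungal walls. It had 8.31, 5.54 and 6.76 FPKM in VC20, 101, 26.0 and 345 FPKM in VC200, and 1170, 30.2 and 91.8 FPKM in VC600. The lowest old tree was 3.13 times the highest VC20 tree, while the old trees differed by up to 44.9 times, with the highest level in VC600A. For protein turnover, *Gb_06919*, a ubiquitin-conjugating enzyme, had 0.842 to 1.88 FPKM in VC20, 4.21 to 9.60 FPKM in VC200 and 4.23 to 6.53 FPKM in VC600. *Gb_28630*, an F-box protein, had 1.52 to 2.01 FPKM in VC20, 3.11 to 3.70 FPKM in VC200 and 3.01 to 3.30 FPKM in VC600, the narrowest ranges of this group.

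**Figure D2:**
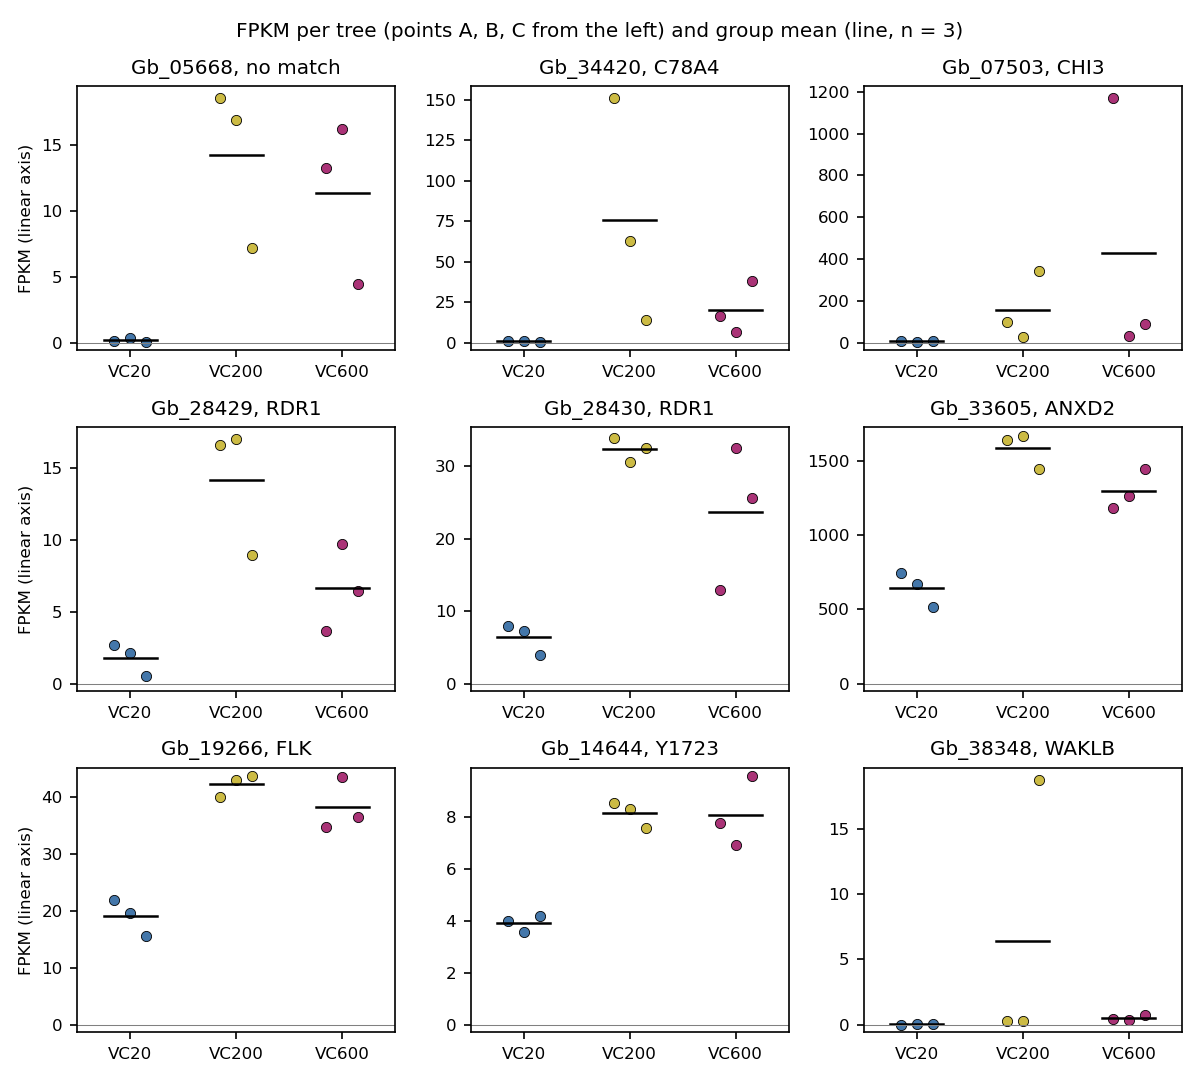
FPKM of 9 members (linear axes, each with its own scale) in the 3 trees of VC20, VC200 and VC600, with points for trees A, B and C from the left and a line at the group mean. *Gb_33605*, *Gb_19266* and *Gb_14644* have old trees close together, *Gb_34420* and *Gb_07503* have old trees spread widely, and *Gb_38348* reaches 18.7 FPKM in VC200C and at most 0.761 FPKM elsewhere.

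Members with other matches included the most abundant of all, *Gb_33605* (scaffold6543:1673673-1817858), matched to annexin D2. Annexins bind membranes in the presence of calcium. It had 746, 667 and 514 FPKM in VC20, 1641, 1668 and 1443 FPKM in VC200, and 1184, 1259 and 1441 FPKM in VC600. The old mean was 1439 ± 195 FPKM (SD, n = 6) against 643 ± 118 FPKM in VC20 (SD, n = 3), a ratio of 2.24. *Gb_19266*, matched to the RNA-binding flowering regulator FLK of *A. thaliana*, had 22.0, 19.7 and 15.7 FPKM in VC20, 40.04, 43.1 and 43.8 FPKM in VC200, and 34.7, 43.7 and 36.6 FPKM in VC600. *Gb_23530*, a membrane protein of the transmembrane 9 superfamily, had 158, 95.8 and 137 FPKM in VC20 and 225 to 258 FPKM in the 6 old trees. The old trees of these 3 genes differed by no more than 1.41 times.

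*Gb_09812* matched phenylalanine aminomutase of yew, an enzyme of taxol synthesis that is related to the ammonia-lyases of phenylpropanoid synthesis. It had 4.13, 5.12 and 5.13 FPKM in VC20, 7.19, 51.9 and 23.0 FPKM in VC200, and 64.2, 20.8 and 138 FPKM in VC600. VC200A exceeded VC20 by little and VC600C by far the most. *Gb_00432*, matched to a LURP-one-related protein, had 18.4, 8.85 and 5.75 FPKM in VC20, 129, 99.4 and 142 FPKM in VC200, and 117, 33.7 and 26.9 FPKM in VC600. *Gb_07645*, matched to EXORDIUM-like 2, had 13.4 to 26.8 FPKM in VC20, 53.1 to 101 FPKM in VC200 and 44.1 to 98.6 FPKM in VC600. *Gb_39479* and *Gb_22579* matched only uncharacterized proteins, with old means of 5.26 and 8.42 FPKM against 1.35 and 2.93 FPKM in VC20.

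Unnamed members held many of the most extreme values. *Gb_05668* (scaffold131:1932951-1934512) had the largest gap between the groups among the 65 members with a fragment in VC20, with 0.160, 0.337 and 0.0454 FPKM in VC20, 18.6, 16.9 and 7.22 FPKM in VC200, and 13.3, 16.3 and 4.47 FPKM in VC600. Its lowest old tree was 13.3 times its highest VC20 tree. These levels came from 1 to 8 fragments in each VC20 library and 102 to 475 in each old library, and the ratio of the means was 70.8 with VC200C and 76.9 without it. *Gb_22566* had 42.3 to 62.5 FPKM in VC20, 179, 209 and 188 FPKM in VC200, and 136, 318 and 212 FPKM in VC600. *Gb_06154* had 19.5, 19.2 and 52.9 FPKM in VC20, 87.5, 83.2 and 174 FPKM in VC200, and 115, 124 and 114 FPKM in VC600, so that VC20C stood between the other young trees and the old trees. *Gb_19532* had 490, 469 and 509 FPKM in VC20, 799, 1176 and 2470 FPKM in VC200, and 1747, 1187 and 1063 FPKM in VC600.

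At lower levels, *Gb_05078* had 0.0796 to 0.270 FPKM in VC20, 13.8, 2.27 and 2.16 FPKM in VC200, and 0.831, 1.02 and 3.22 FPKM in VC600. *Gb_14349* had 0.864, 0 and 0 FPKM in VC20, 4.92, 6.47 and 2.28 FPKM in VC200, and 9.63, 5.89 and 2.997 FPKM in VC600. *Gb_01652* had 1 fragment in VC20A and none in VC20B and VC20C, with 0.757, 0.316 and 2.28 FPKM in VC200 and 12.8, 0.905 and 1.02 FPKM in VC600. Its old mean of 3.01 FPKM rested on VC600A, and the pooled fragment ratio of old trees to VC20 was 55.5, with an exact 95% interval from 9.76 to 2214.

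In 14 members (21.2%) VC200C alone held more than 50% of the summed FPKM of the 6 old trees, compared with 3.68% of the expressed genes. The rule can build in part of this difference, as it asks VC200C to be above VC20. Only 2 of the 14 had a name, *Gb_38348* and *Gb_00190*, and 10 of the 14 are on no supplementary sheet. Among the other 52 members, 32 had a name. The most extreme was *Gb_00547*, with 0.156, 0.132 and 0.0709 FPKM in VC20, 0.367, 0.223 and 287 FPKM in VC200, and 0.719, 0.292 and 0.548 FPKM in VC600. VC200C held 99.3% of its old sum, and its ratio to VC20 was 403 with VC200C and 3.59 without it. *Gb_05318* had 4.73 to 5.27 FPKM in VC20, 7.92, 11.6 and 386 FPKM in VC200, and 7.91 to 9.28 FPKM in VC600, with ratios of 14.4 with VC200C and 1.795 without it.

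Similar levels were found in *Gb_07949*, *Gb_35474*, *Gb_39712* and *Gb_35739*, which had 167, 160, 106 and 139 FPKM in VC200C and no more than 8.65 FPKM in any other tree. *Gb_31435* had 47.0 FPKM in VC200C, 0.911 to 3.46 FPKM in the other old trees, and 1 fragment in the VC20 libraries together. *Gb_20327* had no fragment in any VC20 tree. It had 534 fragments in VC200C (63.1 FPKM) but 9 and 1 in VC200A and VC200B and 2 in each VC600 tree. Taking 3 fragments over the 3 VC20 libraries as the limit that a count of 0 allows (0.110 FPKM), its pooled level was at least 92.6-fold higher in old trees than in VC20, and at least 3.20-fold higher without VC200C. In the 13 of these members with a fragment in VC20, the ratio to VC20 without VC200C was 1.795 to 35.9, a direction that the rule fixes. However, 8 of the 14, and 10 of the 66 members, then had an old mean below 3 FPKM.

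**Figure D3:**
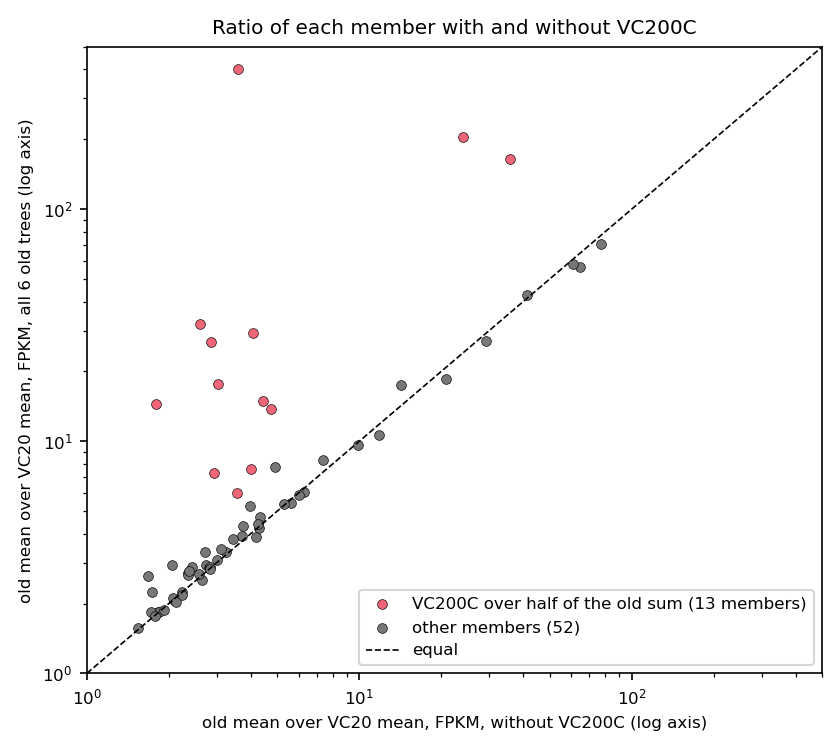
Ratio of the old mean to the VC20 mean for the 65 members with a fragment in VC20, with all 6 old trees (vertical) and without VC200C (horizontal), both on log axes. Members in which VC200C holds more than 50% of the old sum (red) have ratios with VC200C that are 1.68 to 112 times those without it, and lie above the dashed line of equal ratios. In the other 52 members the ratio with VC200C is 0.875 to 1.59 times that without it. That the red points lie above the line and apart from the others follows from how they are defined.

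The remaining 17 members, which no other paragraph describes, included only 2 with a name. *Gb_14882*, matched to a UDP-glucose glucosyltransferase of strawberry, had 6.002 to 6.20 FPKM in VC20, 10.2, 12.6 and 28.9 FPKM in VC200, and 9.14 to 11.4 FPKM in VC600. *Gb_22717*, matched to a WEB family protein, had 1.70 to 2.02 FPKM in VC20, 3.46 to 5.51 FPKM in VC200 and 4.68 to 7.32 FPKM in VC600. The 15 unnamed ones had ratios of the old mean to VC20 between 1.57 (*Gb_21012*) and 17.4 (*Gb_37981*). *Gb_21012*, *Gb_14393*, *Gb_08664*, *Gb_01366*, *Gb_04826* and *Gb_16759* were close together in the old trees, with a highest to lowest ratio of 1.24 to 1.85. *Gb_21012* had 21.9 to 22.7 FPKM in VC20, 35.1 to 38.4 FPKM in VC200 and 30.9 to 35.0 FPKM in VC600, the smallest ratio of all members. In *Gb_24896*, *Gb_25701*, *Gb_15293*, *Gb_26021* and *Gb_33595* the highest old tree was 2.74 to 4.89 times the lowest. In *Gb_17519*, *Gb_37981*, *Gb_37740* and *Gb_01710* it was 7.97 to 35.7 times the lowest, with VC200C the highest tree in each.

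Near the margin, the members just inside were *Gb_07622*, *Gb_39938* and *Gb_07949*, with the lowest old tree at 1.338, 1.344 and 1.352 times the highest VC20 tree. *Gb_07622* had 207, 109 and 12.4 FPKM in VC20, 402, 277 and 2763 FPKM in VC200, and 682, 475 and 358 FPKM in VC600. *Gb_39938*, the short-chain dehydrogenase/reductase, had 10.7 to 12.003 FPKM in VC20, 38.1, 20.3 and 51.8 FPKM in VC200, and 41.0, 16.4 and 16.1 FPKM in VC600. Just outside were *Gb_37857* at 1.325, *Gb_06269* at 1.321 and *Gb_06283* at 1.321. *Gb_37857* matched EDS1B, a regulator of plant immunity, and had 26.4, 26.2 and 17.2 FPKM in VC20, 49.0, 34.9 and 49.6 FPKM in VC200, and 38.8, 38.5 and 37.5 FPKM in VC600. The values on both sides of the margin were alike, with no break in the ratio at the margin.

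The genes left out by the other clauses passed the margin. *Gb_19071*, matched to the abscisic acid synthesis enzyme NCED1, had 6.39, 6.09 and 3.85 FPKM in VC20, 58.3, 69.8 and 87.5 FPKM in VC200, and 70.0, 11.99 and 8.998 FPKM in VC600. *Gb_27520*, matched to the transporter ABCG14, had 25.1, 14.0 and 10.04 FPKM in VC20, 93.9, 84.1 and 135 FPKM in VC200, and 53.0, 37.2 and 35.6 FPKM in VC600. *Gb_18191* had no match, with at most 0.257 FPKM in VC20, 12.2 to 18.8 FPKM in VC200 and 2.46 to 7.97 FPKM in VC600.

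The rule was also applied to 8 libraries at a time, and the picked genes were read in the library left out. Without a VC20 tree, the rule picked 160, 119 and 109 genes (VC20A, VC20B and VC20C left out), of which 41.2%, 55.5% and 60.6% also passed the margin against that tree. Without a VC200 tree, it picked 77, 80 and 73 genes, and 80.5%, 78.8% and 72.6% passed in VC200A, VC200B and VC200C. Without a VC600 tree, it picked 89, 79 and 100 genes, and 69.7%, 79.7% and 63.0% passed in VC600A, VC600B and VC600C. Of all expressed genes, 1.79% to 11.3% passed by the same reading. These shares are descriptions, as the 9 readings share libraries. The library left out was compared with trees of the other age side, whose values had chosen the genes. Shares above those of all expressed genes are thus partly built in, and nothing is read from the difference. VC20A was the tree that removed the most genes, and it was the highest VC20 tree in 34 of the 66 members. Among old trees, VC600C removed the most.

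**Figure D4:**
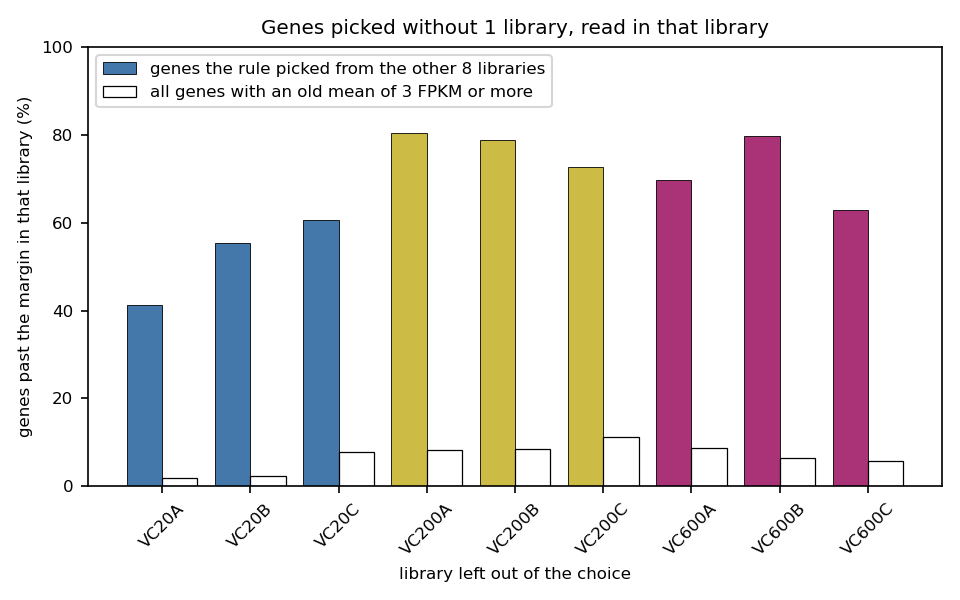
Share of genes (%) past the margin in a library that took no part in choosing them, for each of the 9 libraries. Filled bars are genes picked from the other 8 libraries (blue VC20, yellow VC200, purple VC600) and open bars all expressed genes. Filled bars range from 41.2% to 80.5% and open bars from 1.79% to 11.3%. The trees that each library was compared with did take part in choosing the genes of the filled bars, so the difference is partly built in.

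The statistical calls are given only as a description, because the members were picked on the same contrasts. Genes needed 1 FPKM in 3 or more libraries to enter the limma fit, which left 21,924 genes, among them 63 of 66 members. *Gb_00547*, *Gb_20327* and *Gb_38348* did not reach it. Calls required a log2 fold change of 1 or more with an adjusted p (Benjamini-Hochberg) under 0.05. For the average of VC200 and VC600 against VC20, 7 members were called higher, with a background of 0.10% of all genes. These were *Gb_05668*, *Gb_22566*, *Gb_28430*, *Gb_15682*, *Gb_03293*, *Gb_33605* and *Gb_19266*, which had ratios of the highest to the lowest old tree of 1.26 to 4.15. For *Gb_05668* the log2 fold change was 3.42 (SE 0.407, limma adjusted p = 0.0273), and for *Gb_33605* it was 1.17 (SE 0.174, adjusted p = 0.0421). On fragments recovered from the FPKM values, edgeR called 7 and DESeq2 49 of 63 members higher, with backgrounds of 0.0800% and 1.11%. Without VC200C, limma called 13 of 62 members, with a background of 0.156%, and it called 0 without any single VC20 tree, without VC200A or without VC200B. It called 3 without VC600B and 1 without VC600C.

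By age, limma called 18 members higher in VC200 than in VC20, with a background of 0.283%, and 0 in VC600, with a background of 0.00456%. In VC600, 49 of 63 members had an unadjusted p under 0.05 and a higher level, with a background of 3.26%. There edgeR called 0 and DESeq2 29, with a background of 0.386% for DESeq2. The rule used this contrast, so nothing is read from these counts. The count for VC200 was 0 without VC200A, without VC200B or without any VC20 tree. All 63 tested members had a positive log2 fold change in both age groups, as the selection requires.

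The old groups were also compared with each other, a contrast that the rule used in one direction only, so these counts are descriptions. The VC600 mean exceeded the VC200 mean in 17 of 66 members (25.8%) and in 59.0% of the expressed genes, and the median ratio of the VC600 mean to the VC200 mean was 0.741 in the members and 1.05 in the expressed genes. Without VC200C, the VC600 mean was the higher in 31 members (47.0%) and in 55.5% of the expressed genes. All VC600 trees were then below both remaining VC200 trees in 13 members (19.7%) and in 18.5% of the expressed genes, and above both in 8 members (12.1%) and in 19.8%. With all trees, the VC600 trees were below all VC200 trees in 9 members (13.6%), with a background of 3.17%, although the rule had already left out 2 such genes. All VC600 trees were above all VC200 trees in 2 members (3.03%), with a background of 10.1%. With FPKM rescaled by quantile normalization or by TMM factors, the first count was 12 and 13 (4.87% and 7.18% of the expressed genes) and the second 0 in both (8.21% and 6.05% of the expressed genes). These scalings moved the median log2 fold change of all genes, which was -0.12 for VC200 and -0.02 for VC600 against VC20 as deposited and 0.00 for both after quantile normalization. For VC600 against VC200, limma called 0 of 63 members (1 had an unadjusted p under 0.05 and a higher level in VC600, and 7 a lower level), with a background of 0.00456% in either direction for the calls, and of 7.98% higher and 2.18% lower for the unadjusted p. There edgeR called 0, and DESeq2 called 5 lower in VC600, with a background of 0.729%.

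The 5 genes called by DESeq2 were *Gb_00190*, *Gb_12568*, *Gb_17592*, *Gb_35739* and *Gb_39712*. In *Gb_00190*, *Gb_35739* and *Gb_39712*, VC200C held 71.3%, 85.7% and 88.4% of the old sum. Without VC200C their VC200 means were 1.81, 5.67 and 3.54 FPKM, against VC600 means of 0.807, 3.97 and 2.26 FPKM. *Gb_12568*, which was chosen after its values were seen, had 0.175 to 0.754 FPKM in VC20, 7.75, 4.93 and 2.51 FPKM in VC200, and 1.16, 1.10 and 1.76 FPKM in VC600. At the other end, the ratio of the VC600 mean to the VC200 mean was 4.38 in *Gb_01652*, 2.74 in *Gb_07503* and 2.72 in *Gb_09812*. In each of these the excess came from a single VC600 tree, VC600A in the first and second and VC600C in *Gb_09812*.

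**Figure D5:**
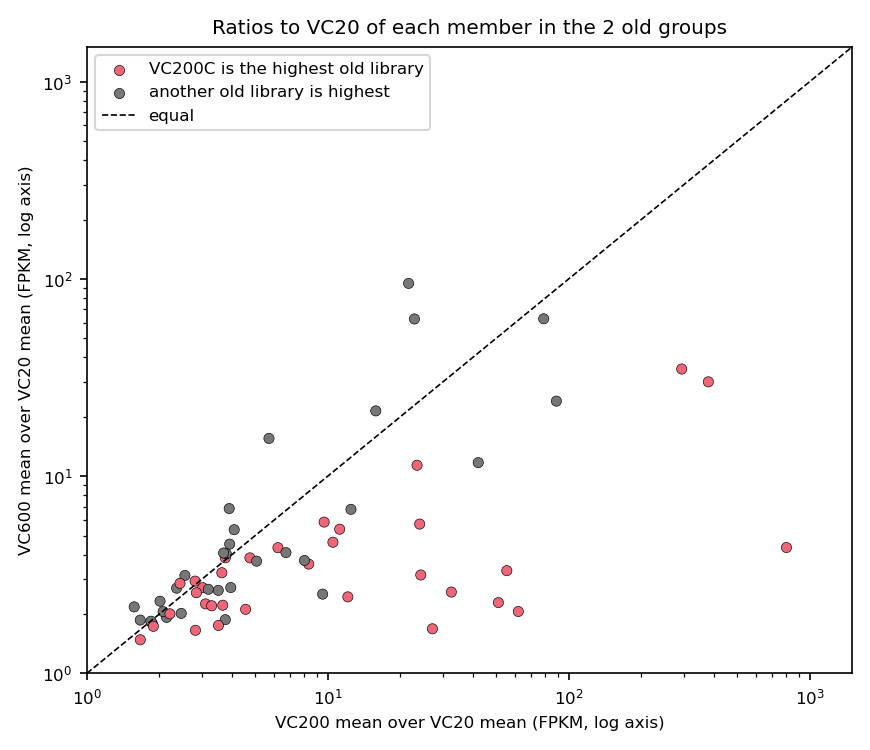
Ratio of the VC200 mean (horizontal) and of the VC600 mean (vertical) to the VC20 mean for 65 members, on log axes, with a dashed line of equal ratios. Points in red, where VC200C is the highest old tree, lie below it in 31 of 34 cases, and 17 of all 66 members have a higher mean in VC600 than in VC200.

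Gene structure was not used by the rule. The span on the scaffold equaled the gene length, so that the model holds no intron, in 23 members (34.8%) and in 16.4% of the expressed genes. The median span was 1498 bases in the members and 3321 bases in the expressed genes, and the median gene length 1030 and 1128 bases. Spans of 100 kb or more were found in 8 members (12.1%), such as *Gb_07503*, *Gb_33605* and *Gb_17592*, and in 18.3% of the expressed genes. The 66 members lay on 65 scaffolds.

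None of the 66 members is on the lists of LRR and autophagy genes given by the study, although *Gb_14644* is named as an LRR receptor-like kinase. These lists hold 434 and 35 of the 41,840 Gb_ gene models. With so small a share of all models, an overlap of 0 is not read as a trait of the members. LRR proteins include many immune receptors, and autophagy genes recycle cell contents. Of these lists, 242 genes were tested for old trees against VC20, and limma called 0 of them in either direction, with a background of 0.274% of all genes. Only 207 of the 434 LRR genes reached the filter, while all 35 autophagy genes did. With no filter, 463 genes of both lists were tested and 0 were called. At so low a background, a count of 0 is not read as a difference from other genes. At an unadjusted p under 0.05, 9 of 207 LRR genes were higher and 21 lower, and 2 of 35 autophagy genes were higher and 3 lower, with a background of 4.72% higher and 10.4% lower. There edgeR called 0 and DESeq2 10 of both lists, with a background of 2.38% in either direction for DESeq2. The median log2 fold change was -0.10 for the LRR genes and 0.02 for the autophagy genes, compared with -0.06 for all genes.

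Small RNA counts were a readout that the rule did not use, with 2 libraries (trees A and B) in each age group and 1,184,091 to 1,842,055 reads per library. Among the deposited predicted targets were 2 members (3.03%), compared with 6.57% of the expressed genes. MicroRNAs pair with transcripts and can lead to their cleavage. *Gb_02269*, matched to a stress-related protein of grape, is a predicted target of the entry novel_335. The entry had 18 and 32 reads in VC20, 5 and 11 reads in VC200, and 0 and 0 reads in VC600. *Gb_02269* itself had 7.61, 5.90 and 2.69 FPKM in VC20, 27.7, 15.6 and 20.8 FPKM in VC200, and 13.9, 14.6 and 15.7 FPKM in VC600. The entry was called lower in VC600 than in VC20 by edgeR (adjusted p = 0.00508), where 46.5% of the 357 tested entries were called in either direction. The limit that a count of 0 over both VC600 libraries allows was taken as 3 reads. Per total reads, without the TMM scaling of the test, the entry was at least 16.3-fold lower in VC600 than in VC20. In VC200 it was not called (log2 fold change -1.28, adjusted p = 0.277), with a background of 8.12%. VC600 differed from VC200 itself (edgeR adjusted p = 0.0166), with a background of 40.3%. Per total reads, again without TMM scaling, the entry was at least 5.37-fold lower in VC600 than in VC200. *Gb_38348* is a predicted target of novel_318, which had 146 and 163 reads in VC20, 85 and 137 reads in VC200, and 102 and 135 reads in VC600, and was called in none of these comparisons (adjusted p = 0.899 for VC200 against VC20 and 0.701 for VC600 against VC20, and 0.556 for VC600 against VC200).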

How the data were processed

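RNA-seq of cambium from 9 trees and small RNA counts from 6 of them were used. The letters A, B and C name trees within a group. According to the methods of the study, HISAT placed the reads on the *G. biloba* assembly. The authors deposited FPKM per gene with scaffold positions, and the submitters' processing notes name TopHat2 2.0.12 and Cufflinks 2.1.1 instead. Small RNA read counts per miRBase or predicted miRNA entry, and predicted targets, were also deposited by the authors. The counting tool and its strand setting are not given here.

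Members and lists were chosen with earlier results of these data known. FPKM times gene length gave whole fragments (tolerance 0.02) for 43,152 genes and for 97.4% to 97.5% of values above 0. Genes were tested with limma 3.58.1 (R 4.3.3) on log2(FPKM + 1), whose fold changes understate those of low genes, in 1 fit of all libraries, and miRNA entries with edgeR 4.0.16 (TMM, quasi-likelihood) and called at an adjusted p under 0.05 and a log2 fold change over 1. Adjusted p values are adjusted over all features tested by Benjamini-Hochberg, and counts at an unadjusted p are named as such. FPKM are not counts, so DESeq2 1.42.0 and edgeR on recovered fragments were alternatives. Both procedures were tested on simulated data. Counting intervals are exact and cover counting error only. Alternatives were other margins, minimums and scalings, a pseudocount of 0.1, no filter, 2 groups only, no minimum fold change, a replicate block and each library left out. Named were members with the 12 largest gaps, the 10 highest old means, those nearest the margin, the 3 highest and 3 lowest ratios of VC600 to VC200, up to 5 per role, miRNA targets and neighbors. No sequences were used here.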

Additional observations from a re-analysis of the deposited data

Results flagged for a closer look

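Outside the Gb_ genes, 10 of 2,071 gene models without Gb_ names (such as *Novel00658*), which the comparisons above do not use, passed the same margin and minimum and so were above every VC20 tree in all 6 old trees. *Novel00658* had 0.0821, 0.216 and 0.326 FPKM in VC20, 7.26, 6.50 and 4.47 FPKM in VC200, and 8.24, 24.4 and 17.95 FPKM in VC600. *Novel00034* had at most 0.0993 FPKM in VC20, 1.39 to 2.82 FPKM in VC200 and 2.97 to 5.86 FPKM in VC600. *Novel00609* was listed at 0 in VC20, with 2.23 to 3.45 FPKM in VC200 and 2.68 to 9.09 FPKM in VC600. *Novel00339* had 2.51 to 7.83 FPKM in VC20, 30.1 to 116 FPKM in VC200 and 30.4 to 74.8 FPKM in VC600. *Novel01362* and *Novel01363* lie next to each other on scaffold4503, with VC20 means of 1.32 and 2.59 FPKM, VC200 means of 11.95 and 16.1 FPKM and VC600 means of 7.39 and 10.8 FPKM. These values are descriptions, as the models were picked on them.

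The miRNA entry novel_335 differed between the age effects, since the test of VC600 against VC200 is also the test of the difference between their contrasts with VC20 (edgeR adjusted p = 0.01659, 0 and 0 reads against 5 and 11). Counts are low, and the call was lost without VC200A, without VC200B or without VC600A.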

How the results depend on the processing

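The number of members was 120, 40 and 15 with margins of 1.2, 1.5 and 2, and 43 with a minimum old mean of 10 FPKM. Leaving out each library gave 73 to 160 genes. Quantile normalization gave 83 genes and TMM factors 92, of which 60 and 64 were members, and without VC200C 52 of 73 were members. Members called higher in VC200 than in VC20, 18 as reported, numbered 4 with no filter, 8 with only the 2 groups, 10 with edgeR, 52 with DESeq2 and 0 to 15 with each library left out. For VC600, 29 were called with DESeq2 and 0 to 1 with each library left out. For old trees against VC20 the count of 7 was 4 with no filter, 49 with DESeq2 and 0 to 13 with each library left out. DESeq2 called 5 members in VC600 against VC200 and 10 LRR or autophagy genes. Among members with a VC600 mean above the VC200 mean, the count of 17 was 31 without VC200C. All VC600 trees were above all VC200 trees in 8 members without VC200C (12.1%, compared with 19.8% of the expressed genes). The xylem wall sum without *Gb_21756* was also added after seeing the data. Other alternatives chosen after seeing the data were the minimum without VC200C, and the scalings and the omission of VC200C in the order of the old groups. Calls of novel_335 and novel_318 against VC20 were the same under all alternatives run.

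With the letters as a replicate block, 2 members were called in VC200, 0 in VC600 and 1 in old trees against VC20. Correlations of same-letter deviations from group means were -0.245 to 0.277, over 0.1 in 2 of 9 pairs. Those of different letters were -0.303 to 0.271, over 0.1 in 5 of 18 pairs. The deviations within a group sum to 0, so these correlations cannot exclude a shared effect of letter. The letters also follow the order of age within each group.

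Limits: each group has 3 trees, fewer than 10 fragments lie behind the VC20 level of the lowest members, and the old mean of 10 members depends on VC200C for reaching the minimum. Read sharing between genes that match the same protein was not tested.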
